A study of Mus musculus with 15 samples.

Results

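Microexons are the shortest exons of a gene, and here they were taken as core exons of 3 to 27 bases. The deposited table of percent spliced in (PSI) held 108413 core exon events, which are single exons that can be kept in or left out of the mRNA, among 138940 splicing events of all types. Of the core exon events, 771 were 3 to 27 bases long. PSI is the share of a gene's transcripts, from 0 to 1, that contain the exon. The table gave 1 PSI for each group and no value for single libraries, so differences of PSI are described without a test, and the read depth behind each PSI is unknown.

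All cells were CD8+ T cells. Their donors were OT-I Tg mice (strain OT-1 Tg C57BL/6J), whose transgenic T cell receptor recognises the ovalbumin peptide SIINFEKL. They were transferred into C57BL/6J hosts, which kept their own lymphocytes. The Ag group received the peptide with a rat IgG control, and the Ag+Costim group received it with the agonist antibodies anti-OX40 and anti-41BB, which act on costimulatory receptors. The labels put collection at day 4 and the study's methods somewhat earlier. Cells taken from the lymph nodes and spleen were sorted on CD8 and, per the study's methods, for a donor marker and the transgenic receptor chains, and the donors were Rag1-/- or Rag2-/-. Each group had 5 libraries of poly(A) RNA, and animal ages are not given per library. Libraries of naive cells were not analysed here.

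The splice sites at both ends of a microexon lie so close together that its recognition often depends on proteins that bind in the neighbouring introns. In neurons the splicing activators Srrm4 and Srrm3 promote many microexons, while Ptbp1 represses a part of them in other cells. A microexon whose length is a multiple of 3 adds a few amino acids without a shift of the reading frame. Many lie in genes of the cytoskeleton, of membrane trafficking and of signalling.

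The sequences of several microexons are shown first because they are short enough to be read in full beside their PSI. Bases in capitals are the microexon, and bases in lower case are the neighbouring exons in the spliced mRNA, read from GENCODE M21 transcripts (mm10, 5′ to 3′ on the gene's strand). The 3-base exons of the related chromatin regulators Asxl1 (chr2:153354650-153354652, + strand) and Asxl2 (chr12:3445452-3445454, + strand) were both AAG. Asxl2 had an alternative 3-base exon, GTG, at chr12:3450251-3450253. The 3-base exons of the microtubule plus-end proteins Clasp1 (chr1:118547656-118547658, + strand) and Clasp2 (chr9:113887045-113887047, + strand) were both AGA.
Asxl1: ggaaatgagAAGtgggacatc
Asxl2, AAG: agaaatcagAAGtgggacttc
Asxl2, GTG: agaaatcagGTGtgggacttc
Clasp1: cacagcaagAGAgttttcagt
Clasp2: catggcaagAGAgtgttcagc

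The PSI of these identical exons differed between the related genes. For AAG the estimate from transcript counts, given further below, put Asxl2 above Asxl1 in Ag, so the order depends on the measure. AAG had a PSI of 0.960 in Ag against 0.977 in Ag+Costim in Asxl1, but 0.522 and 0.490 in Asxl2. AGA had a PSI of 0.976 and 0.973 in Clasp1, but 0.573 and 0.523 in Clasp2. The Asxl2 exon GTG had a PSI of 0.427 in Ag against 0.426 in Ag+Costim. The PSI of AAG and GTG summed to 0.949 in Ag against 0.916 in Ag+Costim, and no annotated transcript held both.

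A pair of short exons of Sept7, a septin that builds filaments under the cell membrane, formed a pair of the same kind, as did those of Mpc1, a subunit of the mitochondrial pyruvate carrier. The Sept7 exons lay at chr9:25264203-25264207 and chr9:25265302-25265306 (+ strand) and were 5 bases long. Their PSI were 0.647 and 0.353 in Ag against 0.643 and 0.357 in Ag+Costim, which summed to 1.0 in both groups. The Mpc1 exons were 4 bases long, at chr17:8293415-8293418 and chr17:8296527-8296530 (+ strand). Their PSI were 0.0177 and 0.979 in Ag against 0.00419 and 0.992 in Ag+Costim. By PSI the Sept7 pair was split, whereas the second Mpc1 exon was used nearly throughout. The Mpc1 gene also holds a member beside an annotated gap of under 30 bases.
Sept7, first: gcaccatggTAGCTcaaccgaag
Sept7, second: gcaccatggTTTGTcaaccgaag
Mpc1, first: tctcatgagTACGcacttctgg
Mpc1, second: tctcatgagTACTcacttctgg

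In all, 60 pairs of microexons in 46 genes were never joined in an annotated transcript, with at least 1 transcript for each exon that held it and skipped the other. PSI summed to between 0.9 and 1.1 in both groups for 21 of them. Asxl2 and Sept7 were the 2 pairs of these 21 in which both exons had a PSI of at least 0.1 in Ag. These pairs were singled out after their values were seen. Dnm2, the GTPase that cuts vesicles off the membrane, showed the more common pattern. Its 12-base exons at chr9:21489910-21489921 and chr9:21490658-21490669 (+ strand) had PSI of 0.000731 and 0.961 in Ag against 0.000379 and 0.964 in Ag+Costim. Among longer microexons, pairs of related genes also shared sequence, and the examples shown are the CLASP proteins, the translation factors Eif4g1 and Eif4g3, the argonaute partners Tnrc6a and Tnrc6b, and the ubiquitin-conjugating enzymes Ube2a and Ube2b.
Clasp1, 24 bases: ctgCTGTTAGGAGACGCCAGGAGCAAGaag
Clasp2, 24 bases: ctgCTCTTAGGAGACATACGGACTAAGaaa
Eif4g1, 21 bases: ccagGGAGGATTCAGGTCTCTGCAGcact
Eif4g3, 21 bases: tcagGGAGGATTCAGACCCATCCAGtttt
Tnrc6a, 22 bases: gaagGCCACTGAACAAAAAATCAAAGtgcc
Tnrc6b, 22 bases: gaagGTCACGGAACAAAAAACCAAAGtgcc
Ube2a, 26 bases: ggGCCCGAAGGGACCCCGTTTGAGGATGga
Ube2b, 26 bases: ggACCAGAAGGGACACCCTTTGAAGATGgt

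The Clasp1 exon (chr1:118541675-118541698) and the Clasp2 exon (chr9:113878750-113878773) shared 17 of 24 bases, and their PSI in Ag were 0.056 and 0.0197. The exons of Eif4g1 (chr16:20674786-20674806) and Eif4g3 (chr4:138095909-138095929) shared 16 of 21 bases, with PSI in Ag of 0.00476 and 0.00437. By PSI, both pairs were low. The exons of Tnrc6a (chr7:123152164-123152185) and Tnrc6b (chr15:80864385-80864406) shared 19 of 22 bases, with PSI in Ag of 0.948 and 0.950. The exons of Ube2a (chrX:36875167-36875192) and Ube2b (chr11:51995374-51995399) shared 21 of 26 bases, with PSI in Ag of 1.0 each. Over all members, 19 pairs had equal length of at least 8 bases, at least 70% identical bases, gene symbols with the same stem and both genes at 10 CPM or more, CPM being counts scaled to library size. Both exons were high in both groups in 14 of these pairs and low in 3, and the other 2 joined a high exon to one in between.

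The PSI of microexons spread over the whole range, while that of longer core exons was mostly high. The median PSI of the 771 microexons was 0.934 in Ag against 0.931 in Ag+Costim. It was 0.988 and 0.994 for 4494 core exons of 28 to 51 bases, and 0.993 and 0.996 for 90190 core exons of 52 to 200 bases. PSI was under 0.1 in both groups, called low here, for 199 microexons (25.8%). That share was 3.60% at 28 to 51 bases, 0.587% at 52 to 200 bases and 0.417% of the 12950 core exons over 200 bases. PSI was over 0.9 in both groups, called high, for 401 microexons (52%), against 83.6%, 90.7% and 89.4% in the longer classes.

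**Figure D1:**
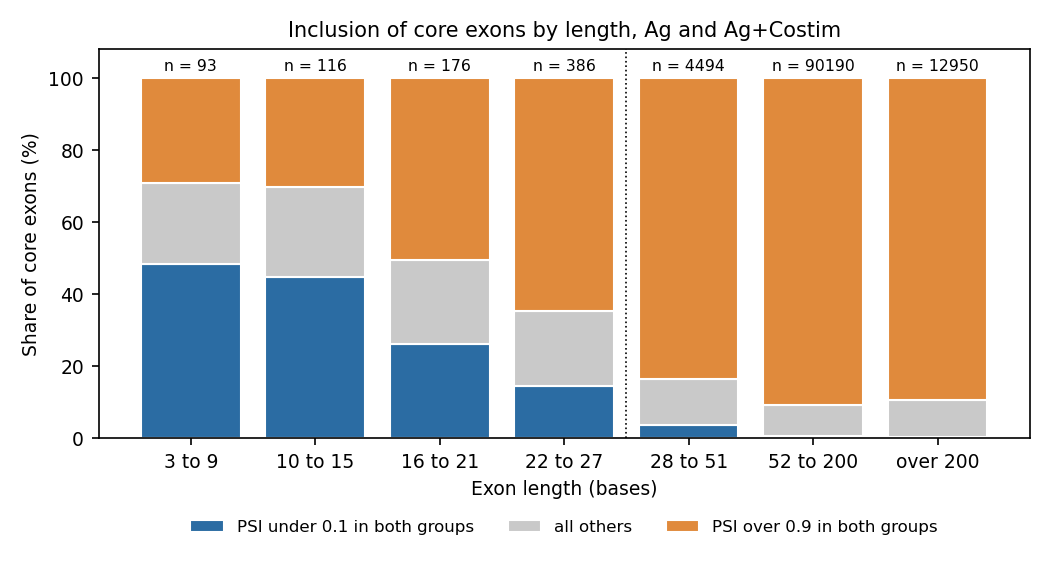
Share of core exons (%) by exon length in bases, split by PSI in both groups; n is the number of exons in each class and the dotted line marks the limit of 27 bases. Low exons made up 45 of 93 at 3 to 9 bases and 56 of 386 at 22 to 27 bases.

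Within the microexons, PSI was higher at greater lengths. The median PSI in Ag was 0.0756 at 3 to 9 bases, 0.119 at 10 to 15 bases, 0.921 at 16 to 21 bases and 0.970 at 22 to 27 bases. In Ag+Costim the medians were 0.0939, 0.134, 0.916 and 0.976. At the upper limit, the 101 exons of 27 bases had a median PSI of 0.969 in Ag, and the 58 core exons of 28 bases had 0.991.

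Most microexons had a length that keeps the reading frame. Of the 771, 447 (58.0%) had a length that is a multiple of 3, against 42.5%, 38.3% and 41.1% in the 3 longer classes. The share was highest where the exon was left out. Among the 709 members in coding sequence, 140 of 183 low members (76.5%), 106 of 151 in between (70.2%) and 177 of 375 high members (47.2%) had such a length. The annotation held a transcript that skips the exon for 380 of 756 members placed in 1 gene. Their median PSI in Ag was 0.0787, against 0.989 for the 376 others, of which 2 were low.

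**Figure D2:**
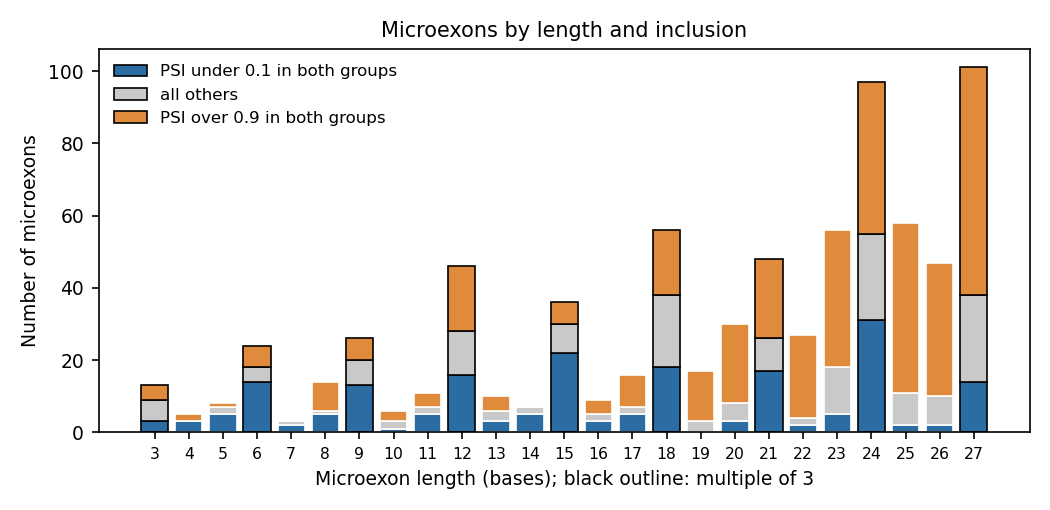
Number of microexons at each length in bases, split by PSI in both groups, with lengths that are multiples of 3 outlined in black. Lengths of 24 and 27 bases held 97 and 101 members, and 148 of the 199 low exons had an outlined length.

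Exons often end in G before the splice site. The last base was G in 76.9% of microexons and in 78.6%, 80.2% and 84.0% of the longer classes, and the first base was G in 40.2%, 47.4%, 48.9% and 49.2%. The median upstream intron was 1337.5 bases, against 1186.5 bases for exons of 28 to 51 bases. In the annotation 709 members were coding, 17 partly coding, 19 in the 5′ UTR, 3 in the 3′ UTR and 8 in transcripts with no coding sequence. The members lay in 608 genes, of which 109 held more than 1, so they are not independent of each other. Clasp1, Pdlim5 and Gm10634 held 5 each and Dctn1 held 4.

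Markers of T cells were expressed in every library, and markers of other cell types at lower sums. The 7 T cell markers, Cd3e and Cd8a among them, summed to between 3383 and 6678 CPM over the 10 libraries. B cell markers summed to at most 51.4 CPM in Ag+Costim and reached 353 CPM in Ag, and erythroid markers reached 40.1 and 1106 CPM. Myeloid markers lay between 55.5 and 186 CPM and CD4 T cell markers at 26.4 CPM or less. Estimated gene counts summed to between 59598556 and 639070261 per library. Ag replicates 1, 3 and 4 stood apart, with 40441 to 51778 genes with a count, against 20714 to 30340 in the other 7 libraries. In Ag replicate 3, the shallowest library, the markers of B and erythroid cells were highest, at 353 and 1106 CPM. In the same library the T cell markers were lowest, at 3383 CPM. The part of these libraries in the PSI of the Ag group was not tested, since PSI was not given per library.

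Genes known for neural microexons were expressed but mostly skipped the microexon. Of 38 genes on this list, 15 reached 10 CPM and held a microexon, with 30 members in all. PSI was low in both groups for 23 of the 30, in between for 2 and high for 5, against 166 low among the 564 members in genes of at least 10 CPM (29.4%). The list was chosen for its known microexons, so its low share is a description. The largest difference between groups on the list was 0.0498. In the expression test described below, 0 of the 38 genes passed the adjusted threshold in edgeR and 12 had an unadjusted p under 0.05 (31.6%), against 18.6% of all genes tested. In Ag+Costim 3 of the 12 had a higher fitted level and 9 a lower one, and 8 of those 9 had their highest CPM in Ag replicate 3.

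Adaptors of the actin cytoskeleton and of membranes were among the low members. Abi1, a part of the actin-nucleating WAVE complex, had 15-base exons with PSI of 0.125 and 0.00176 in Ag against 0.121 and 0.00115 in Ag+Costim. The 9-base exon of Ap1s2, a subunit of the clathrin adaptor AP-1, had a PSI of 0.00271 in Ag against 0.00129 in Ag+Costim. Madd, an activator of Rab GTPases, had a 9-base exon with PSI of 0.00307 and 0.00154. The 9-base and 5-base exons of Asap1, which switches off Arf GTPases, had PSI of 0.0084 and 0.00673 in Ag. The 24-base and 15-base exons of Rapgef6, an activator of Rap GTPases, had PSI of 0.00835 and 0.00846 in Ag. Apart from the first Abi1 exon, these exons were low in both groups. Values this small may lie near the floor of the PSI estimate, so their differences between groups are not read as changes.

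Transcription factors and translation factors followed. The exon known as the beta exon of the Mef2 factors had a PSI of 0.0125 in Ag against 0.0101 in Ag+Costim in Mef2a (24 bases) and 0.0656 and 0.078 in Mef2d (21 bases). Phf21a, which reads unmethylated histone tails, had a 23-base exon with PSI of 0.0607 and 0.0467 and a 27-base exon with PSI of 0.962 and 0.959. The 21-base exon of Eif4g1, the scaffold of the cap-binding complex, had a PSI of 0.00476 in Ag against 0.0432 in Ag+Costim. The 3 exons of Eif4g3 had PSI of at most 0.00437 in Ag.

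Members with higher PSI stood beside low ones in the same genes. Clasp1 held 4 low exons, with PSI of 0.02 to 0.056 in Ag, beside its 3-base exon at 0.976. Clasp2 held 3 low exons, with PSI of 0.0197 to 0.0277 in Ag, beside its 3-base exon at 0.573. Sptan1, the non-erythroid spectrin alpha chain, had a 15-base exon at 0.0607 and exons of 24 and 18 bases at 0.996 and 0.997 in Ag. The last of these was at 0.956 in Ag+Costim. The 12-base exon of Ptprs, a receptor phosphatase, had a PSI of 0.980 in Ag against 0.991 in Ag+Costim.

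**Figure D3:**
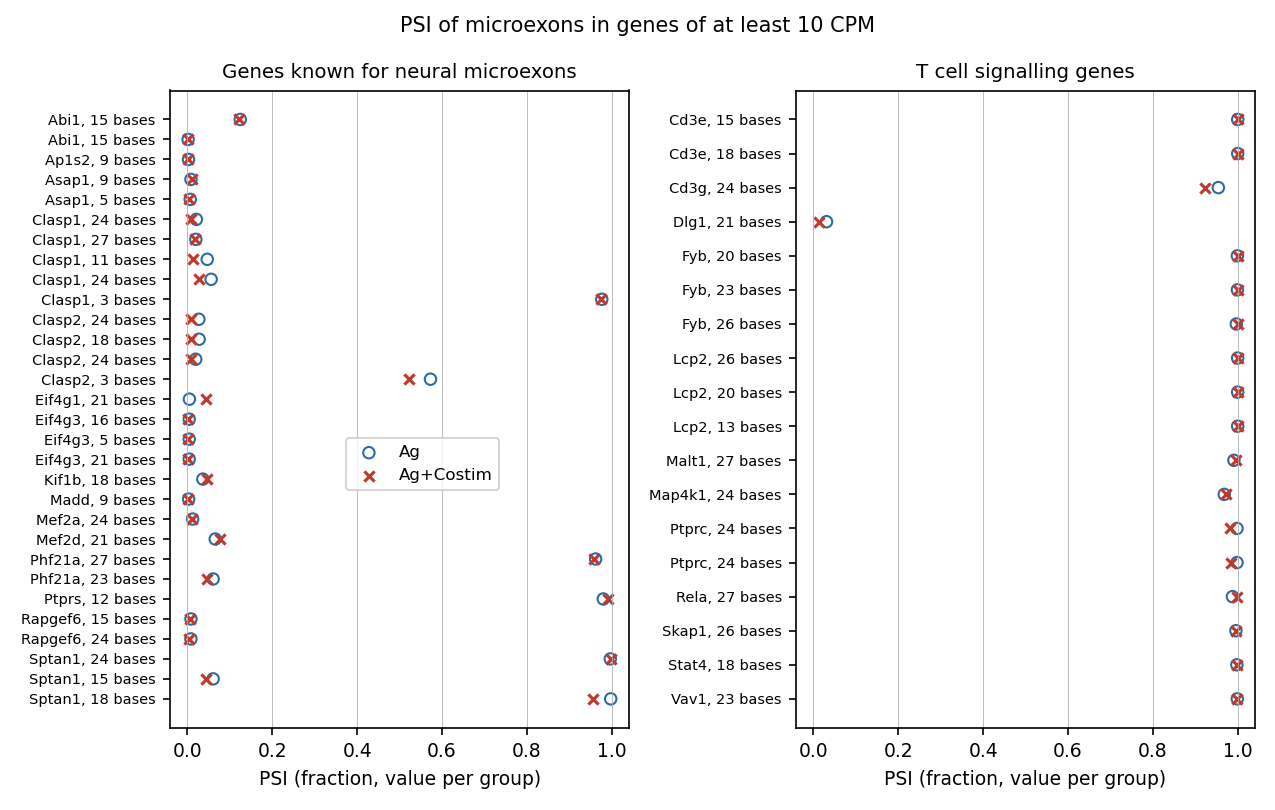
PSI per group of each microexon in genes of at least 10 CPM, for genes known for neural microexons and for T cell signalling genes; circles are Ag and crosses Ag+Costim. On the left 23 of 30 members lay under 0.1 in both groups, and on the right 17 of 18 lay over 0.9.

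Microexons of T cell signalling genes were nearly always included. Of 18 members in 12 genes of at least 10 CPM, 17 were high in both groups and 1 was low. The background in genes of at least 10 CPM was 321 of 564 microexons high (56.9%), and 95.8% of core exons of every length. Some of them are shown as examples from the receptor complex and its adaptors, namely the Cd3e exons at chr9:45007176-45007193 and chr9:45005512-45005526 (− strand), the Lcp2 exon at chr11:34081720-34081732 (+ strand) and the Vav1 exon at chr17:57305459-57305481 (+ strand).
Cd3e, 18 bases: tagctgTTGGCACTTGCCAGGACGatgccg
Cd3e, 15 bases: caggacgATGCCGAGAACATTGaatacaa
Lcp2, 13 bases: gagagaatGATGAAGATGATGtgcatcag
Vav1, 23 bases: aagATTTCGCAGGAACCATGAAGAAGgac

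Both exons of Cd3e, a signalling chain of the T cell receptor complex, had a PSI of 1.0 in each group. They are neighbours in the mRNA, as the shared bases of both lines show. The 3 exons of Lcp2, the adaptor SLP-76, and the 3 of Fyb, the adaptor ADAP that binds it, had PSI of 0.997 to 1.0 in both groups. The 23-base exon of Vav1, an activator of Rac, had PSI of 0.999 in Ag against 0.998 in Ag+Costim. The same held for exons of the transcription factor Stat4 (0.998 and 0.999), the adaptor Skap1 (0.996 and 0.996) and the kinase Map4k1 (0.968 and 0.972). The 27-base exon of Malt1, a protease of the NF-kB pathway, had PSI of 0.991 and 0.996.

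Differences on this list were small. The 24-base exon of Cd3g had a PSI of 0.954 in Ag against 0.922 in Ag+Costim. The pair of 24-base exons of Ptprc, the phosphatase CD45, had PSI of 0.998 in Ag, and 0.982 and 0.985 in Ag+Costim. Rela, a subunit of NF-kB, went the other way, from 0.987 to 0.999. The exception to high inclusion was the 21-base exon of Dlg1, a scaffold of the synapse and of polarised cells, with PSI of 0.0311 and 0.0131. The largest difference on this list was 0.0325. In expression, 0 of the 56 genes on the list passed the adjusted threshold in edgeR and 8 had an unadjusted p under 0.05 (14.3%), against 18.6% of all genes tested and 23.5% of those of at least 10 CPM.

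The T cell receptor beta chain itself held a microexon in each copy of its constant region. The 18-base exons of Trbc1 (chr6:41539114-41539131, + strand) and Trbc2 (chr6:41547610-41547627, + strand) shared 15 bases. PSI was 0.938 in Ag against 0.940 in Ag+Costim for Trbc1, and 1.0 in both groups for Trbc2. The genes are near-identical copies, and reads may have been split between them, so both values are uncertain.

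Microexon genes were also grouped by function through patterns of their gene symbols. In genes of at least 10 CPM, 32 of 50 members of cytoskeleton and motor genes were low and 10 high. Membrane trafficking had 14 low and 11 high of 32, and kinases and phosphatases had 9 low and 14 high of 29. Regulators of GTPases had 9 low and 7 high of 19, and genes of chromatin and transcription had 9 low and 13 high of 26. Genes of RNA processing and translation had 7 low and 18 high of 29. The length was a multiple of 3 for 39 of 50 members in the cytoskeleton group and for 10 of 29 in the RNA group. Over all 564 members in genes of at least 10 CPM, 166 were low, 321 high and 332 had a length that is a multiple of 3.

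Within the cytoskeleton group, a few genes supplied many low members. The 5 members of Pdlim5, which anchors signalling proteins to actin, had PSI of 0.00577 to 0.00594 in Ag. In Ag+Costim they lay at 0.00357 to 0.00362. Whether such near-equal values reflect the floor of the PSI estimate was not tested. The 4 members of Dctn1, a subunit of dynactin, were also low in both groups. Macf1, which links actin to microtubules, had members of 14, 18 and 12 bases at 0.00908, 0.0104 and 0.00635 in Ag beside an 11-base member at 0.965, and the gene holds a member beside an annotated gap of under 30 bases. The highest-expressed low member of any group lay in Ewsr1, an RNA-binding protein, with PSI of 0.00155 in Ag against 0.000164 in Ag+Costim.

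PSI of microexons differed little between Ag and Ag+Costim. The median difference, Ag+Costim minus Ag, was 0.0003 for microexons and 0.0013 for all core exons. PSI was higher by at least 0.1 in Ag+Costim for 12 microexons, or 1.56%, against a background of 0.695% of all core exons. It was lower by at least 0.1 for 24, or 3.11%, against 0.702%. In genes of at least 10 CPM, 4 of 564 were higher (0.709%), against a background of 0.290%, and 5 were lower (0.887%), against 0.236%. Most of the differences thus lay in genes under 10 CPM. An exon that was low or high in both groups could not differ by 0.1. Of the exons in between, 12 of 171 microexons were higher and 24 lower, against 754 and 761 of 9884 core exons. In genes of at least 10 CPM, 4 of 77 were higher (5.19%) and 5 lower (6.49%), against 239 and 194 of 2644 core exons. The shares over all microexons are therefore not read as a trait of microexons. At the limit of 0.1, Vav2 and Gm10634 were just inside at 0.101 and −0.103, and Dclk2 and Lyrm5 just outside at 0.0974 and −0.0992.

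Suco, a protein of the endoplasmic reticulum membrane, had the largest difference among genes of at least 10 CPM. Its 21-base exon (chr1:161845560-161845580, − strand, coding) had a PSI of 0.232 in Ag against 0.50 in Ag+Costim. The lipase maturation factor Lmf1 had an 11-base exon (chr17:25588676-25588686, + strand, coding) with PSI of 0.850 and 0.960. The 24-base exon of the centriole protein Cep128 had PSI of 0.859 and 0.981, and the 12-base 5′ UTR exon of Ccdc163 had 0.735 and 0.895. On the lower side, the 9-base exon of Iffo1, an intermediate filament family protein, had PSI of 0.720 and 0.550 (chr6:125151795-125151803, + strand). The 25-base exon of Dpy19l1, a mannosyltransferase family member, had 0.928 and 0.809.
Suco: gaagATGTTCATCAAGTACATAAAGgtgg
Lmf1: gcagatctgGTATTCTTTTGgatgggagt
Iffo1: atgttccagAAGAAGCTGgtcccgtcc

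The remaining lower members were in Gstt3, L1cam and Gm11168. The 8-base exon of Gstt3, a glutathione transferase, had PSI of 0.195 and 0.0821, with the gene at 11.3 CPM in Ag against 8.33 CPM in Ag+Costim. L1cam, a cell adhesion molecule, had a 12-base exon with PSI of 0.165 and 0.0572, with the gene at 6.28 and 11.1 CPM. Gm11168 passed the minimum of 10 CPM through 1 library. It had 198 CPM in Ag replicate 3 and at most 4.60 CPM in the other 9 libraries, and its 11-base exon, with PSI of 0.973 and 0.857, lay beside an annotated gap of under 30 bases.

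**Figure D4:**
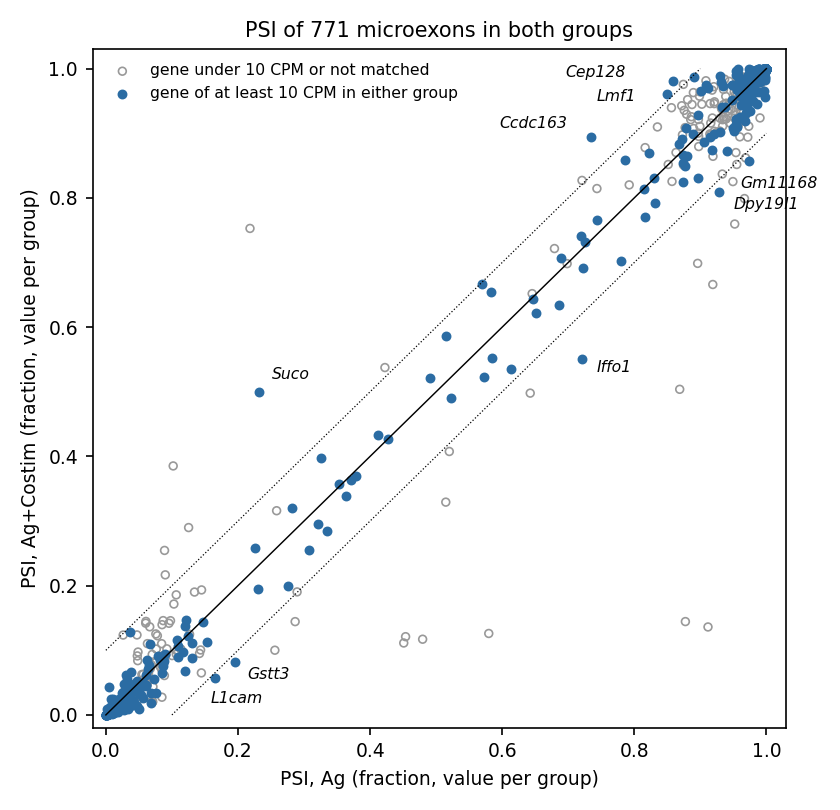
PSI of the 771 microexons in Ag (x axis) and Ag+Costim (y axis), each a fraction with 1 value per group; filled points are members in genes of at least 10 CPM in either group. The solid line marks equal PSI and the dotted lines a difference of 0.1, beyond which 4 filled points lay above and 5 below.

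Some microexons of highly expressed genes were split between both forms, with little difference between groups. Anxa6, a calcium-dependent membrane-binding protein at 1510 CPM in Ag, had an 18-base exon with PSI of 0.726 in Ag against 0.731 in Ag+Costim. Arhgef1, an activator of RhoA at 951 CPM in Ag, had a 12-base exon with PSI of 0.613 and 0.536. The 26-base 5′ UTR exon of Hnrnpc, an RNA-packaging protein, had PSI of 0.372 and 0.364. The 6-base exon of Ap2m1, the cargo-binding subunit of the clathrin adaptor AP-2, had PSI of 0.326 and 0.397.

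Inclusion was also estimated per library from the transcript counts, as the share of length-corrected counts in transcripts that contain the exon. This allowed a test over libraries, but only where annotated transcripts with and without the exon existed and together reached 20 counts in at least 4 libraries of each group. It could be done for 365 of the 771 members, and libraries under 20 counts were left out of the fit of that exon. None of the 365 passed limma with Benjamini-Hochberg (BH) adjustment over 12672 core exons, and the lowest adjusted p was 0.272. The background was 0.0237% of the core exons tested. At an unadjusted p under 0.05, 16 members were higher and 14 lower, together 8.22%, against a background of 13.5%. The groups did not overlap for 0 members higher in Ag+Costim (background 0.537%) and for 2 lower (background 0.868%). Without Ag replicates 1, 3 and 4, an alternative chosen after the data were seen, 6 of 356 members passed (1.69%), against 1.02% of the core exons tested. The study counts the replicates of a group as mice, so these p-values measure the spread between mice.

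The estimates of inclusion from PSI and from transcript counts often differed. They lay within 10 percentage points of each other in Ag for 214 of the 365 members (58.6%), but over 50 points apart for 46 (12.6%). The second Mpc1 exon had a PSI of 0.979 in Ag and an inclusion of 0.187% by transcript counts, and the first had 0.0177 and 99.8%. The AAG exon had 23.2% ± 40.2 in Ag for Asxl1 and 100% for Asxl2, against PSI of 0.960 and 0.522. Some exons that were low by PSI were not low by transcript counts, with 61.1% ± 9.45 in Ag for the 3 low exons of Clasp2, whose transcript values were equal, 74.5% ± 9.43 for the 15-base exon of Sptan1 and 41.8% ± 17.5 for the exon of Mef2a (SD, n = 5 each). The values from transcript counts below therefore describe the transcripts that the counting assigned, not the PSI.

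The members with the lowest p were in Gon4l, Lmf1, Cpeb4 and Mast4. Gon4l, a transcriptional co-regulator, held a 24-base exon (chr3:88875907-88875930, + strand) and a 13-base exon (chr3:88879299-88879311) that no annotated transcript joins. The inclusion of the 24-base exon was 25.5%, 5.07%, 6.19%, 7.17% and 4.42% in Ag against 36.5%, 24.5%, 33.6%, 53.3% and 39.5% in Ag+Costim. The groups overlapped through Ag replicate 1 and Ag+Costim replicate 2. The difference was 2.78 ± 0.61 (SE) in log2 odds, with a limma adjusted p of 0.272 and an exact two-sided permutation p of 0.0159. The 13-base exon went the other way, from 86.1% ± 8.93 to 55.5% ± 9.43 (SD, n = 5 each). Its lowest library in Ag, at 71.2%, was above its highest in Ag+Costim, at 66.3%, and the exact permutation p was 0.0079, the smallest that 5 against 5 libraries allow. Gon4l, Lmf1, Cpeb4 and Mast4 were picked for their low p among 365 members. A permutation p from the same values is therefore not separate support for them. PSI did not show this, being 0.689 and 0.707 for the 24-base exon and 0.0194 and 0.0105 for the 13-base exon. Transcripts that hold 1 of these exons count as skipping the other, so the pair is not a repeat. A fit without Ag replicates 1, 3 and 4, chosen after the data were seen, left only Ag replicates 2 and 5 in that group. It also removed Ag replicate 1, through which the groups overlapped for the 24-base exon. The limma adjusted p was then 0.0405 for the 24-base exon and 0.0274 for the 13-base exon.

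For Lmf1 both estimates were higher in Ag+Costim. Inclusion by transcript counts was 72.1%, 55.4%, 61.1%, 61.5% and 47.4% in Ag, and 66.8% in Ag+Costim replicate 1 and 100% in the other 4 Ag+Costim libraries. The groups overlapped through that replicate 1. The difference was 8.17 ± 1.73 (SE) in log2 odds, with a limma adjusted p of 0.272 and an exact permutation p of 0.0159. At 100% there were no skipping counts, so the size of this difference depends on the pseudocount of 5. Without Ag+Costim replicate 1 the limma adjusted p was 1.47e-05, a value that rests on leaving out the library that made the groups overlap. For Suco, inclusion was 98.5% ± 1.31 in Ag against 98.9% ± 0.410 in Ag+Costim (SD, n = 5 each), with an exact permutation p of 0.683. Transcript counts put this exon near full inclusion, far above its PSI in both groups. They therefore cannot show whether its PSI differed. For Iffo1 it was 63.2% ± 17.5 and 62.6% ± 13.5, with an exact permutation p of 0.944.

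Cpeb4 and Mast4 lay in genes of low expression. Cpeb4, which controls translation through mRNA tails, had a 24-base exon that was included at 35.6% to 100% over the Ag libraries and at 100% in each Ag+Costim library, with the gene at 3.35 and 1.47 CPM. The exact permutation p was 0.167. The 9-base exon of the kinase Mast4 was included at 2.92% ± 3.42 in Ag against 0.10% ± 0.223 in Ag+Costim (SD, n = 5 each), with the same exact permutation p. Neither difference was larger than the spread between libraries by this test.

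**Figure D5:**
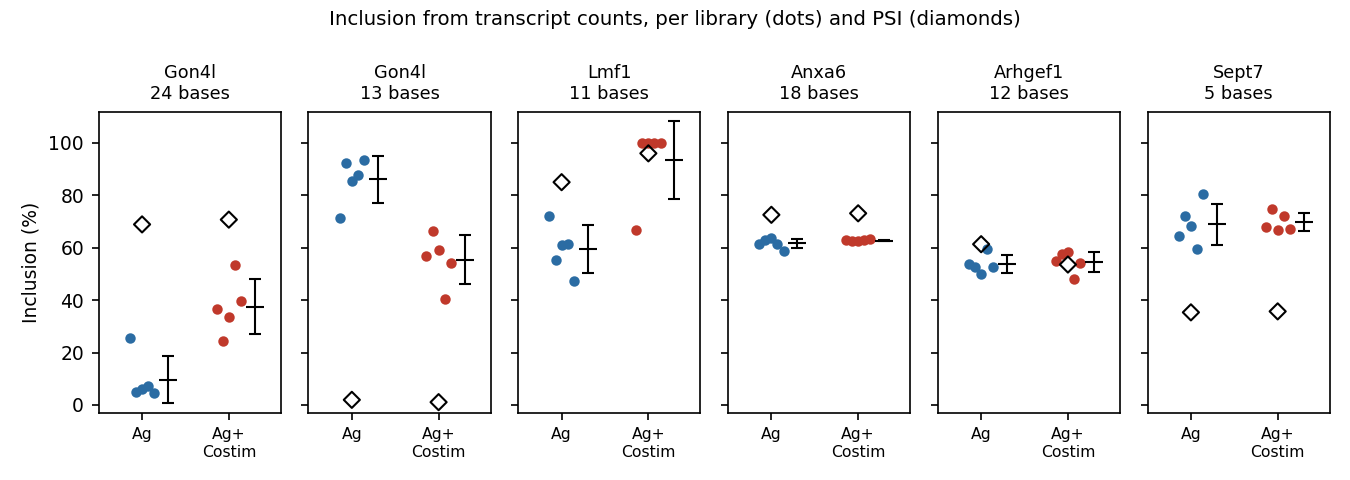
Inclusion (%) from transcript counts for 6 microexons, with 1 dot per library, the mean and SD of 5 libraries beside them, and PSI times 100 as open diamonds. The groups stood apart for the 13-base exon of Gon4l and lay on each other for Anxa6, Arhgef1 and Sept7, while dots and diamonds differed most for Gon4l.

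By transcript counts, exons of 5 highly expressed genes that were split by PSI differed between groups by less than the spread in Ag. For Anxa6, inclusion was 61.7% ± 1.79 in Ag against 62.7% ± 0.288 in Ag+Costim (SD, n = 5 each). For Arhgef1 it was 53.8% ± 3.51 and 54.6% ± 3.96, so that the lower PSI in Ag+Costim was not seen by this measure. For Hnrnpc it was 46.7% ± 5.74 and 51.7% ± 7.45. For the second exon of Sept7 it was 68.9% ± 7.91 and 69.8% ± 3.48, and for Ap2m1 9.60% ± 4.81 and 7.89% ± 1.76. The measures disagreed on the level of these exons. PSI was lower for the second Sept7 exon, at 0.353 and 0.357, and higher for the Ap2m1 exon.

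The expression of genes that hold microexons was compared with that of all genes tested. Of the 608 genes, 607 were tested with the edgeR quasi-likelihood test, and 0 passed at a BH-adjusted p of 0.05, as did 0.00% of all 24262 genes tested. At an unadjusted p under 0.05 there were 127 (20.9%), 89 higher and 38 lower in Ag+Costim, against a background of 18.6%. In genes of at least 10 CPM, 56 of 449 had groups that did not overlap with Ag+Costim higher (12.5%), against a background of 11.3%, and 1 with Ag+Costim lower (0.223%), against 0.237%. The median log2 fold change was 0.20 for these 449 genes and 0.24 for all 8861 genes of at least 10 CPM. In bulk RNA, fewer cells of a type and less RNA per cell cannot be told apart. Other tools and settings called more genes. DESeq2 called 71 of 606 member genes (11.7%), against 14.3% of all genes it tested. With limma voom and quality weights 387 of 607 were called (63.8%), against 52.1% of all genes. Without Ag replicates 1, 3 and 4, edgeR called 97 of 607 (16%), against 10.8% of all genes.

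The 5 member genes with the lowest p were all higher in Ag+Costim, and none passed the adjusted threshold. Dctn1, a subunit of dynactin, had 76.3, 91.4, 101, 86.8 and 95 CPM in Ag against 131, 145, 157, 162 and 164 CPM in Ag+Costim, a log2 fold change of 0.75 ± 0.13 (SE) with an edgeR adjusted p of 0.119. Dync1i2, an intermediate chain of dynein, had 51.8 ± 5.72 and 75.6 ± 2.41 CPM (SD, n = 5 each), with a log2 fold change of 0.54. Eif4g1 had 155 ± 37.0 and 299 ± 39.8 CPM, with a log2 fold change of 0.94. The other two were Gtf3c2, a subunit of the RNA polymerase III factor TFIIIC, with 93.9 ± 11.2 and 144 ± 8.4 CPM, and the deubiquitinase Usp48, with 90.5 ± 14.1 and 146 ± 13 CPM. The microexons of Dctn1, Dync1i2 and Eif4g1 were low in both groups.

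Among known regulators of microexon splicing, the neural activators Srrm4 and Srrm3 were not among the highest expressed. Of the 32 genes on this list, the 6 with the highest mean were Srsf3, Mbnl1, Ptbp1, Puf60, Rbm39 and Rnps1. The neural activators Srrm4 and Srrm3 were at 0.00916 and 0.0564 CPM on average in Ag+Costim, and at 0.853 and 1.01 CPM in Ag. Their highest values, 3.23 and 3.89 CPM, were both in Ag replicate 3, and the other Ag libraries had at most 0.839 and 0.819 CPM. Ptbp1 had 166, 491, 370, 217 and 511 CPM in Ag against 510, 516, 573, 635 and 603 CPM in Ag+Costim. Ag replicates 1 and 4 were the lowest and the groups overlapped by a narrow margin, with a log2 fold change of 0.69 ± 0.30 (SE) and an edgeR adjusted p of 0.267. Srsf3 had 612 ± 342 and 879 ± 97.4 CPM (SD, n = 5 each), Rnps1 234 ± 119 and 351 ± 24.1 CPM, and Puf60 340 ± 138 and 454 ± 20.3 CPM. Rbm39 had 369 ± 87.3 and 354 ± 23.6 CPM. The differences of Srsf3, Rnps1, Puf60, Rbm39 and Srrm3 changed sign without Ag replicates 1, 3 and 4, and none of them had passed the adjusted threshold.

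Some regulators were higher in every Ag+Costim library than in any Ag library. Of 30 regulators tested, 0 passed the adjusted threshold and 16 had an unadjusted p under 0.05 in the edgeR test (53.3%). The background was 18.6% of all genes tested and 23.5% of those of at least 10 CPM. For 7 the groups did not overlap, with Ag+Costim higher, against a background of 4.48% of all genes tested and 11.3% of genes of at least 10 CPM. The 7 were Celf1, Celf2, Mbnl1, Sf1, Srrm1, Srsf1 and U2af1, named after their values were seen. In Ag+Costim 11 of the 16 had a higher fitted level and 5 a lower one. The 5 lower, Elavl2, Elavl3, Rbfox1, Rbfox3 and Srrm3, had their highest CPM in Ag replicate 3. Celf1 and Celf2 bind U- and G-rich RNA beside exons, and Mbnl1 antagonises them at many exons. Mbnl1 had 402 ± 67.2 CPM in Ag against 545 ± 21.3 CPM in Ag+Costim (SD, n = 5 each), and Srsf1, an exon-binding activator, had 195 ± 61.3 and 346 ± 37.5 CPM. The summed CPM of the list was 3179 to 5160 in the Ag libraries and 5550 to 6386 in the Ag+Costim libraries. B cell markers were raised in Ag replicates 1, 3 and 4, and erythroid markers in Ag replicates 1 and 3. Ag replicates 1, 3 and 4 were also among the Ag libraries compared. Their part in these differences was not tested apart from the fit without them.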

How the data were processed

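RNA of sorted CD8+ T cells was sequenced from 5 Ag and 5 Ag+Costim libraries. Per the labels and the study's methods, the authors aligned reads to mm10 with HISAT2 2.1.0, sorted them with SAMtools 1.9 and counted with StringTie 2.1.0. The deposited estimated counts per gene and transcript come from coverage, so their totals are not reads. The authors ran Whippet on the raw reads, and the deposited PSI is a fraction with 1 value per group. Its version is not given in the sources used here. The authors' own differences and probabilities in that table were not used.

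Members were core exon events of 3 to 27 bases, placed in GENCODE M21, in which 757 were whole exons. Counts were tested with edgeR 4.0.16 (filterByExpr, TMM), the contrast being Ag+Costim minus Ag, and CPM are TMM-scaled. Inclusion per library was the share of length-corrected transcript counts, tested with limma 3.58.1 on log2 odds with a pseudocount of 5. Both were checked on simulated data. BH adjustment ran over all genes or core exons tested. Members named were those with PSI differences of at least 0.1, those on the neural and T cell lists, the shortest, the split ones of highest CPM and those with the lowest p. The members and lists were chosen with earlier results of these data known. The study counts replicates as mice, so p-values measure the spread between mice. Alternatives were other scalings, filters, tools, weights, a replicate block and leaving out libraries. Intervals for PSI could not be given.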

Additional observations from a re-analysis of the deposited data

Results flagged for a closer look

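Among 57 groups of 5 libraries with values given in the report, 8 had 1 library far from the other 4 by Dixon's criterion at the 95% level, where chance flags about 1 in 20 groups. Gm11168 had 198 CPM in Ag replicate 3, against 0.0269 to 4.60 CPM in the other Ag libraries. Srrm3 and Srrm4 had 3.89 and 3.23 CPM in the same library, against at most 0.819 and 0.839 CPM in the other Ag libraries. In Ag+Costim replicate 2, Srrm3 had 0.121 CPM, against 0.0351 to 0.0439 CPM. The 11-base exon of Lmf1 was included at 66.8% in Ag+Costim replicate 1 and at 100% in the other Ag+Costim libraries, by transcript counts. The 24-base exon of Gon4l was included at 25.5% in Ag replicate 1, against 4.42% to 7.17%. The exon of L1cam was included at 0.802% in Ag+Costim replicate 2, against 21.1% to 22.7%, and that of Mast4 at 0.50% in Ag+Costim replicate 3 and 0% in the others.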

How the results depend on the processing

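No member gene and no microexon passed BH adjustment in the edgeR and limma tests, with 127 genes and 30 microexons at an unadjusted p under 0.05. The count of genes stayed at 0 with other scalings, no filter and each library left out (0 to 0). It was 71 of 606 with DESeq2 (14.3% of all genes), 387 of 607 with limma voom and quality weights (52.1% of all genes), and 97 of 607 without Ag replicates 1, 3 and 4 (10.8% of all genes), the last chosen after seeing the data. The count of microexons was 0 to 1 with 1 library left out, the calls being Lmf1 without Ag+Costim replicate 1 and the 21-base exon of Eif4g3 without Ag+Costim replicate 5 (limma adjusted p 0.0424). It was 2 with quality weights (Cpeb4 and Sel1l) and 6 without Ag replicates 1, 3 and 4 (Trim34b, Ctage5, Vps8, Camsap2 and both exons of Gon4l). With the replicate block, 0 genes and 0 microexons passed, and 96 genes and 24 microexons had an unadjusted p under 0.05. The numbers do not pair the libraries, since same-numbered libraries correlated at 0.21, −0.01, −0.20, −0.44 and 0.05 over 8626 genes.

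PSI was higher in 49 and lower in 45 microexons at a difference of at least 0.05, in 3 and 8 at 0.2, and in 4 and 5 in genes of at least 10 CPM at 0.1. Of 366 alternative values for 21 single genes or exons, 315 kept their direction and side of the threshold, 27 passed it newly and 24 changed sign. The cause was not tested. Without Ag replicates 1, 3 and 4 the log2 fold change was −0.035 for Puf60, −0.0038 for Rnps1, −0.10 for Srsf3, 3.04 for Srrm3 and 0.029 for Rbm39, and the log2 odds of Suco were −1.01. Rbm39 was at 0.21 with no filter and at −0.17 to 0.057 with 1 library left out, above 0 without Ag replicate 4 or Ag+Costim replicate 3. Suco was at −0.41 with a pseudocount of 1, −0.26 with quality weights and −0.43 to 0.65 with 1 library left out. Iffo1 was at 0.046 and L1cam at 0.047 with counts not divided by length. With 1 library left out, Iffo1 was at −0.48 to 0.26 and L1cam at −1.03 to 0.61.

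PSI has no replicate values and no depth, so small differences of PSI cannot be told from error. Inclusion from transcript counts depends on how the counting assigned reads to annotated transcripts. Estimated counts derive from coverage, so no counting interval was given.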

Other observations

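The spread of inclusion by transcript counts was smaller in Ag+Costim than in Ag for 261 of the 365 microexons tested (71.5%), and for 57.0% of the 12672 core exons. The median SD over libraries was 2.74 percentage points in Ag and 1.25 in Ag+Costim. Ag replicates 1, 3 and 4, which held the most genes with a count, were among the Ag libraries, and their part in the spread was not tested.

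Of the 771 members, 13 lay beside an annotated gap of under 30 bases, which is shorter than a usual intron. They were in Acbd4, Cfl1, Gm11110, Gm11168, Gm21887, Gm47283, Lig1, Macf1, Mpc1, Oas1b and Pitpna. Another 7 had a border that is not annotated, and 8 were listed under another gene too.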
